A study of Mus musculus with 8 samples.

Results

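The cells were selected on their own transcripts. Endothelial cells were taken from the E8.5 libraries as cells without an Etv2 UMI (unique molecular identifier) that held UMIs of at least 4 of 8 endothelial genes (Cdh5, Pecam1, Plvap, Esam, Emcn, Tie1, Cldn5 and Icam2) and of at most 1 of the erythroid genes Slc4a1, Epb42, Trim10 and Rhag. The rule gave 710 cells out of 37186 kept E8.5 cells and 49838 kept cells of the whole series, 318 in the 4 Tet-TKO libraries and 392 in the 2 WT host libraries. Tet-TKO cells descend from 1 ES cell line of mixed C57BL/6J-129Sv background that lacks Tet1, Tet2 and Tet3 and carries a tdTomato reporter under a ubiquitous promoter. These ES cells had been injected into C57BL/6J blastocysts, and chimeric embryos were pooled, dissociated and sorted, so WT host cells are the tdTomato- C57BL/6J cells of chimaeras. Genotype, strain and clone therefore cannot be told apart, no library is 1 embryo, and WT host cells developed beside Tet-TKO cells. Since all Tet-TKO cells descend from 1 line, sex cannot be told apart from genotype either. The labels do not say that libraries came from separate pools, so p-values measure only the spread between libraries.

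Endothelial cells line the vessels and the heart of the embryo, and at E8.5 they include the first arteries and veins, the endocardium, the vessels of the yolk sac and the haemogenic endothelium, from which blood cells arise. They form under vascular endothelial growth factor (VEGF) and transcription factors of the ETS, SOX, GATA and KLF families, and Notch signalling is used when arteries are set apart from veins. TET enzymes oxidise methylated cytosine, mostly at CG dinucleotides, and so take part in the removal of DNA methylation.

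The 6 libraries held 65601218 to 136982886 UMIs and 1008 to 9545 kept cells. Tet-TKO libraries 3 and 4 stood apart from the others, with 2299 and 1008 kept cells of a median of 40404 and 68931 UMIs, against 12178 to 18774 UMIs in the other 4 libraries. Endothelial cells had median depths of 18912, 11188, 20446 and 20265 UMIs in Tet-TKO libraries 1 to 4 and of 12445 and 10823 UMIs in WT host libraries 1 and 2. No barcode of an endothelial cell occurred in 2 libraries. A tdTomato UMI was found in 83 of 107, 129 of 189, 10 of 18 and 2 of 4 endothelial cells of Tet-TKO libraries 1 to 4 and in 4 of 205 and 6 of 187 of the WT host libraries. Tet-TKO library 4, with 4 endothelial cells, fell under the minimum of 10 cells and was left out of the main gene fits, although its values are printed. It entered only alternatives that summed libraries, set no minimum of cells or allowed Etv2 UMIs. Tet1, Tet2 and Tet3 gave log2 fold changes of -0.96, 0.24 and 0.26 with adjusted p-values of 0.276 or more in edgeR's quasi-likelihood test, and since 3′ tags can lie outside the deleted part these values do not check the deletion.

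**Figure D1:**
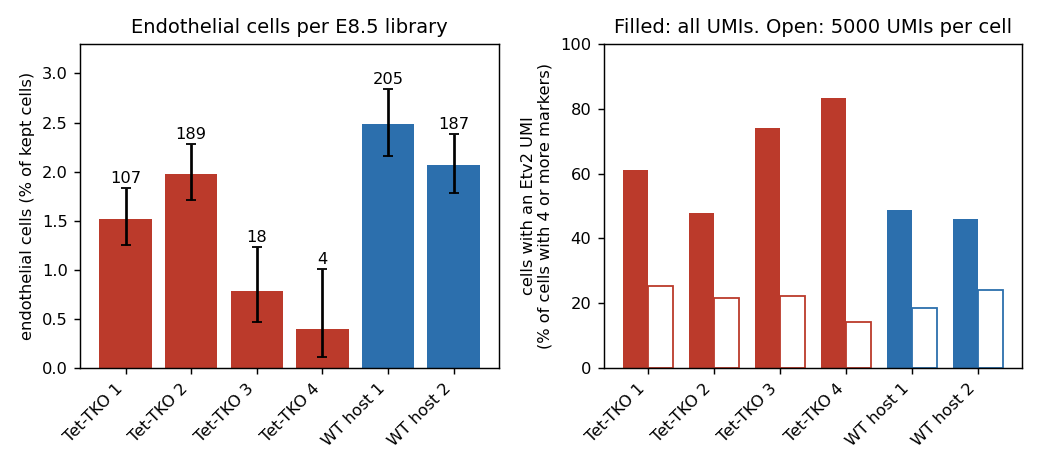
Share of endothelial cells among kept cells (left, in percent, with exact 95% binomial intervals and the number of cells above each bar) and share of cells with an Etv2 UMI among cells with 4 or more markers (right, in percent), per E8.5 library. Red bars are Tet-TKO and blue bars WT host libraries; at right, filled bars use all UMIs and open bars 5000 UMIs per cell. All 4 Tet-TKO libraries lie below both WT host libraries at left, between 0.397% and 1.98% against 2.07% and 2.48%.

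Endothelial cells made up a smaller share of the Tet-TKO libraries than of the WT host libraries. The share of kept cells was 1.52% (exact 95% binomial interval 1.25% to 1.83%), 1.98% (1.71% to 2.28%), 0.783% (0.465% to 1.23%) and 0.397% (0.108% to 1.01%) across the Tet-TKO libraries. It was 2.48% (2.16% to 2.84%) and 2.07% (1.79% to 2.38%) in WT host libraries 1 and 2. The intervals cover counting error only. The groups did not overlap, but Tet-TKO library 2 and WT host library 2 were close, with overlapping intervals. With cells whose tdTomato UMIs did not match the sort left out, the groups overlapped, at 2.22% in Tet-TKO library 2 and 2.02% in WT host library 2 (difference -1.06 percentage points, exact two-sided permutation p = 0.267). The means were 1.17% ± 0.713 (SD, n = 4) and 2.28% ± 0.293 (SD, n = 2), a difference of -1.11 percentage points with an exact two-sided permutation p of 0.133, which is the smallest p that 4 against 2 libraries can give. Within the libraries numbered 1 and 2 in both groups the mean difference was -0.526 percentage points. Erythroid cells, which the WT host libraries hold in larger number, were part of this total. Without cells holding 2 or more erythroid genes in the total, the difference was -1.48 percentage points.

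Etv2, the transcription factor that starts the endothelial and blood programme and is then switched off, kept many cells with endothelial markers out of the group. Of the cells that passed the marker and erythroid limits, 167, 174, 51 and 20 Tet-TKO cells held an Etv2 UMI in libraries 1 to 4, as did 194 and 159 WT host cells, 765 cells in all against the 710 endothelial cells. These were 60.9%, 47.9%, 73.9% and 83.3% of such cells in the Tet-TKO libraries and 48.6% and 46.0% in the WT host libraries. Cells with an Etv2 UMI had median depths of 48617 and 90350 UMIs in Tet-TKO libraries 3 and 4 and of 13818 to 21827 UMIs in the other 4 libraries. With every cell thinned to 5000 UMIs the shares were 25.3%, 21.6%, 22.2% and 14.3% in Tet-TKO and 18.4% and 24.1% in WT host, and the groups overlapped. Etv2 UMIs were also found in 17.6%, 11.9%, 15.4% and 20.6% of Tet-TKO cells and in 9.40% and 7.49% of WT host cells that held none of the 8 markers at full depth, and in 7.32%, 6.22%, 3.34% and 3.90% (Tet-TKO) and 4.43% and 3.43% (WT host) at 5000 UMIs, where the groups overlapped. In Tet-TKO libraries 3 and 4 the rule left few cells. With the 765 cells that held an Etv2 UMI counted as endothelial, the shares were 3.27% ± 0.715 (SD, n = 4) in Tet-TKO and 4.33% ± 0.710 (SD, n = 2) in WT host, a difference of -1.06 percentage points (exact two-sided permutation p = 0.267). The groups overlapped, at 3.89% in Tet-TKO library 1 and 3.83% in WT host library 2. With every cell also thinned to 5000 UMIs, a setting that was not planned, the shares were 1.24% ± 0.365 (SD, n = 4) and 2.47% ± 0.601 (SD, n = 2), a difference of -1.23 percentage points without overlap of the groups (exact two-sided permutation p = 0.133).

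The group carried the genes its label calls for, also those the rule did not use. Over cells with none of the 8 markers, the genes with the largest ratio of mean level (in CPM, UMIs relative to the depth of the summed cells) were, beside the 8 markers, Ctla2a, Lyve1, Igf1, Gimap4, D030007L05Rik, Sox18 and Cd34. Lyve1, a hyaluronan receptor of yolk sac and lymphatic endothelium, had a mean of 247 CPM in endothelial cells and 0.138 CPM in cells without the markers. For Cd34, a sialomucin of endothelium and blood progenitors, these means were 135 and 1.10 CPM. All 29 genes of a list of endothelial genes outside the rule were detected and tested. These cells were chosen for endothelial transcripts, so these ratios describe them and were not tested. There were 131 endothelial cells with exactly 4 markers and 76 with all 8, and 96 further cells held 3 markers and met the other limits, which marks how close the threshold lies to the next cells.

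Of the genes used by the rule, Plvap, a component of the diaphragms of fenestrae, stood at 169, 224, 258 and 81.4 CPM across the 4 Tet-TKO libraries, in order, and 359.7 and 409.6 CPM in WT host. For Icam2, an adhesion molecule of endothelial junctions, the levels were 83.4, 122, 127 and 65.1 CPM (Tet-TKO) and 209 and 212 CPM (WT host). Both were lower in every Tet-TKO library than in either WT host library. Cdh5, the cadherin of endothelial junctions, had 205, 208, 321 and 195 CPM (Tet-TKO) and 265 and 284 CPM (WT host), and Tie1, an angiopoietin co-receptor, had 61.0, 64.9, 99.7 and 57.0 CPM (Tet-TKO) and 60.8 and 77.0 CPM (WT host), with overlapping groups in both cases. These 4 genes chose the cells, so their levels are a description and carry no test.

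**Figure D2:**
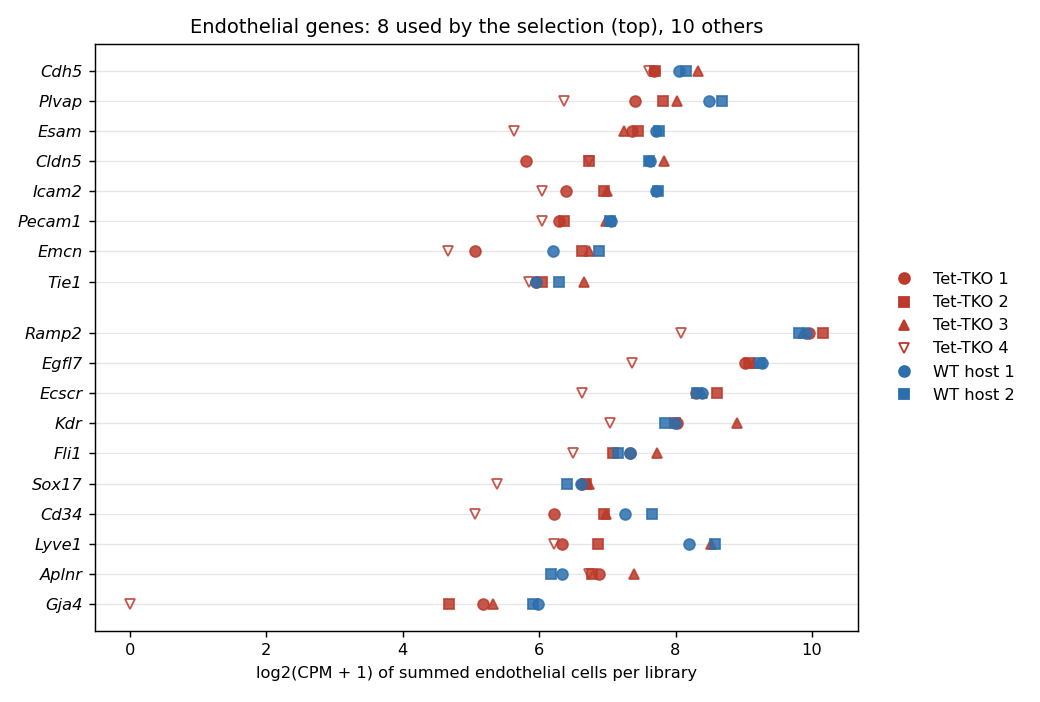
Levels of endothelial genes in the summed endothelial cells of each E8.5 library, as log2(CPM + 1), with 8 genes of the rule at the top and 10 others below. Red symbols are Tet-TKO libraries 1 to 4 (library 4, 4 cells, is open and was not fitted) and blue symbols WT host libraries; Aplnr lies higher and Plvap, Esam, Icam2, Pecam1, Egfl7, Cd34 and Gja4 lie lower in all Tet-TKO libraries, and the other 10 genes overlap between the groups.

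Few endothelial genes were called. Over 9599 genes tested with edgeR's quasi-likelihood test (Benjamini-Hochberg adjusted p of 0.01 and absolute log2 fold change of 1), 18 genes (0.188%) were higher and 39 genes (0.406%) lower in Tet-TKO than in WT host endothelial cells. These counts depended on single libraries, with 3 higher and 4 lower without Tet-TKO library 2 and 50 higher and 138 lower without Tet-TKO library 3, and 7 of the 57 genes kept their call whichever library was left out. The paper listed endothelium among the late mesodermal types with the most differentially expressed genes in Tet-TKO. It tested only cell type markers and did not test sums of cells, so the counts cannot be compared. Of the 29 endothelial genes outside the rule, 0 were called higher and 1, Gpr182, was called lower, with a median log2 fold change of 0.11, against a median of 0.01 over all genes tested. Kdr, the main VEGF receptor, stood at 259.6, 254, 479 and 130.2 CPM across the 4 Tet-TKO libraries, in order, and 254 and 229 CPM in WT host. Its log2 fold change was 0.41 (SE 0.23, adjusted p = 0.684). Library 3 lay far above the others, and libraries 1 and 2 were close to the WT host level. Of the 9 VEGF and Tie receptor genes tested, 0 were called. Flt1, the decoy VEGF receptor, had 83.8, 101, 254 and 24.4 CPM (Tet-TKO) and 143 and 168 CPM (WT host), and Tek, the angiopoietin receptor, had 51.9, 67.4, 154 and 97.6 CPM (Tet-TKO) and 71.4 and 79.7 CPM (WT host). Both had their highest level in library 3, which holds 18 endothelial cells, and their log2 fold changes were -0.23 and 0.11 (adjusted p = 0.945 and 0.984, edgeR).

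Ramp2, the adrenomedullin co-receptor, and Egfl7, a secreted vascular protein, gave small differences. The levels of Ramp2 were 994, 1146, 931 and 269 CPM (Tet-TKO) and 965 and 895 CPM (WT host), and its log2 fold change was 0.16 (SE 0.17, adjusted p = 0.899). Those of Egfl7 were 516, 540.2, 567 and 163 CPM (Tet-TKO) and 615 and 605 CPM (WT host), with a log2 fold change of -0.16 (SE 0.14, adjusted p = 0.873). Ramp2 overlapped between the groups and Egfl7 was lower in every Tet-TKO library, lowest in library 4 with its 4 cells.

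Of 26 endothelial transcription factors tested, 0 were called higher and 1, Klf2, was called lower, with a median log2 fold change of -0.07. Fli1 and Ets1, members of the ETS family, gave 0.14 (SE 0.18, adjusted p = 0.936) and 0.84 (SE 0.41, adjusted p = 0.594), Sox17, which acts in arterial endothelium, gave 0.18 (SE 0.16, adjusted p = 0.872), and Lmo2, a bridging protein of blood and endothelial factors, gave 0.54 (SE 0.18, adjusted p = 0.294). For Lmo2 all 4 Tet-TKO libraries lay above the WT host libraries, at 202, 223, 321 and 187 CPM (Tet-TKO) and 175 and 162 CPM (WT host), without passing the test. Ets1 overlapped between groups at 95.7, 111, 342 and 97.6 CPM (Tet-TKO) and 97.9 and 85.7 CPM (WT host), and the level of library 3 stood out.

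Klf2, a zinc finger factor that endothelium induces under blood flow, fell in Tet-TKO endothelial cells. Its level was 50.5, 45.2, 74.3 and 24.4 CPM across the 4 Tet-TKO libraries, in order, and 178 and 131 CPM in WT host. All 4 Tet-TKO libraries lay below both WT host libraries. The log2 fold change was -1.52 (SE 0.21, adjusted p = 0.00457) in edgeR's quasi-likelihood test. With 1 library left out in turn, the adjusted p ranged over 5.61e-06 to 0.104, highest without WT host library 1, and it was below 0.01 only without Tet-TKO library 3. Cells without the 8 markers gave Klf2 a log2 fold change of -0.03, and the difference between the 2 cell sets was -1.67 (SE 0.19) on the log2 scale and was called by a test of that difference, the interaction of genotype and cell set.

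**Figure D3:**
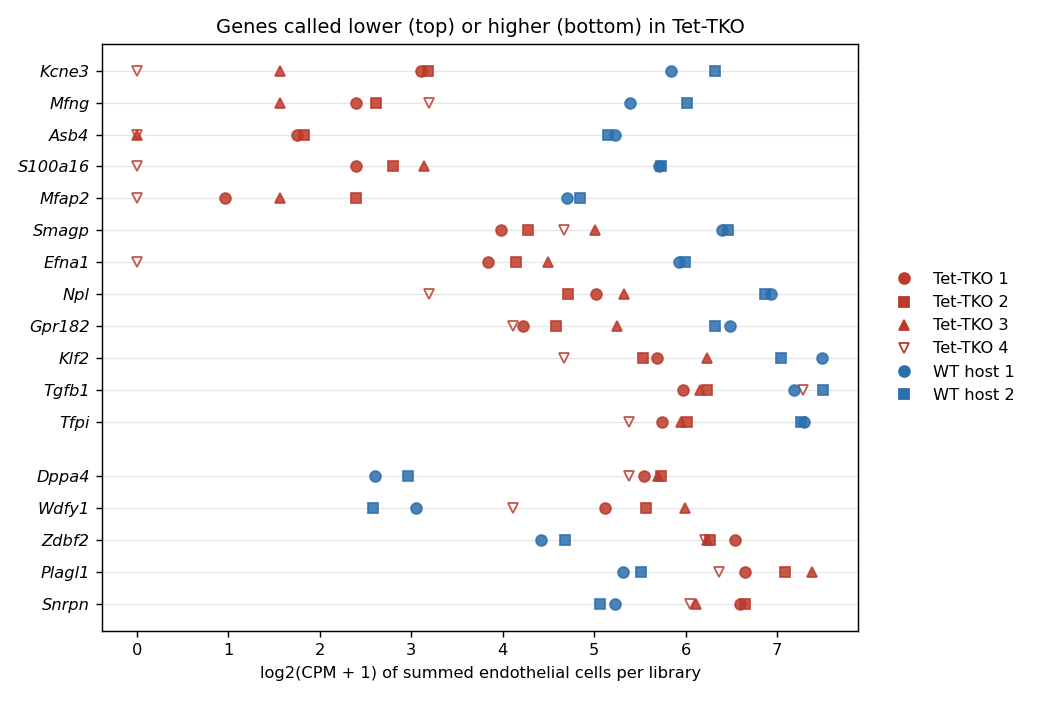
Levels of 12 genes called lower (top) and 5 called higher (bottom) in Tet-TKO endothelial cells, as log2(CPM + 1) of the summed endothelial cells of each E8.5 library. Red symbols are Tet-TKO and blue symbols WT host libraries (library 4 of Tet-TKO, open, was not fitted); in the fitted libraries no gene overlaps between the groups, and the open symbol of Tgfb1 lies between the WT host libraries.

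Kcne3 and Mfng fell in Tet-TKO endothelial cells. Kcne3, a regulatory subunit of potassium channels, had 7.62, 8.11, 1.96 and 0 CPM across the 4 Tet-TKO libraries, in order, and 56.4 and 78.8 CPM in WT host. Its log2 fold change was -3.18 (SE 0.29, adjusted p = 4.64e-04). Mfng, a glycosyltransferase that modifies Notch receptors, had 4.29, 5.12, 1.96 and 8.14 CPM across the 4 Tet-TKO libraries, in order, and 41.1 and 63.8 CPM in WT host, a log2 fold change of -3.50 (SE 0.32, adjusted p = 4.64e-04). No Tet-TKO library reached 10 CPM of either gene, whereas both WT host libraries exceeded 40 CPM. With 1 library left out in turn, the adjusted p ranged over 3.92e-07 to 0.0159 for Kcne3 and 1.39e-06 to 0.0156 for Mfng, and both calls were lost only without Tet-TKO library 2.

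Efna1, an ephrin ligand of endothelium, had 13.3, 16.6, 21.5 and 0 CPM (Tet-TKO) and 60.1 and 62.9 CPM (WT host) and a log2 fold change of -1.90 (SE 0.21, adjusted p = 9.76e-04). Gpr182, a chemokine-scavenging receptor of endothelium, had 17.6, 23.0, 37.2 and 16.3 CPM (Tet-TKO) and 88.8 and 78.8 CPM (WT host) and a log2 fold change of -1.83 (SE 0.23, adjusted p = 0.00246). For both, all Tet-TKO libraries were lower than both WT host libraries. Tfpi, the inhibitor of the tissue factor pathway of coagulation, had 52.4, 63.6, 60.6 and 40.7 CPM (Tet-TKO) and 156 and 152 CPM (WT host) and -1.36 (SE 0.16, adjusted p = 0.00179). Tgfb1, the ligand that signals through endothelial TGF-beta receptors, had 61.9, 74.2, 70.4 and 155 CPM (Tet-TKO) and 144 and 181 CPM (WT host) and -1.21 (SE 0.17, adjusted p = 0.00493). Library 4, with 19 UMIs of Tgfb1, did not follow the fitted libraries. The adjusted p over leave-one-out fits was 3.63e-06 to 0.0286 for Efna1, 2.13e-06 to 0.0645 for Gpr182, 3.05e-06 to 0.0451 for Tfpi and 2.02e-05 to 0.130 for Tgfb1, and for each it passed 0.01 only without Tet-TKO library 3.

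Of the remaining lower genes with a mean of at least 20 CPM in WT host, Asb4, a subunit of ubiquitin ligases found in embryonic endothelium, had 2.38, 2.56, 0 and 0 CPM (Tet-TKO) and 36.4 and 34.6 CPM (WT host) and -3.93 (SE 0.37, adjusted p = 4.64e-04). Its level was 0 in Tet-TKO libraries 3 and 4. S100a16, a calcium-binding protein, had 4.29, 5.97, 7.82 and 0 CPM (Tet-TKO) and 51.3 and 51.9 CPM (WT host) and -3.18 (SE 0.25, adjusted p = 1.66e-04), and its call held in every leave-one-out fit (2.83e-07 to 0.00970). Mfap2, a component of microfibrils, gave -3.26 (SE 0.41, adjusted p = 0.00256), and Smagp, a membrane glycoprotein, gave -2.14 (SE 0.22, adjusted p = 7.36e-04). Npl, an enzyme of sialic acid breakdown, had 31.4, 25.2, 39.1 and 8.14 CPM (Tet-TKO) and 122 and 116 CPM (WT host) and -1.95 (SE 0.19, adjusted p = 4.84e-04). Ccnd2, a D-type cyclin, had 47.6, 42.2, 33.2 and 24.4 CPM (Tet-TKO) and 103 and 107 CPM (WT host) and -1.25 (SE 0.19, adjusted p = 0.00835). The adjusted p over leave-one-out fits was 9.69e-07 to 0.0159 for Asb4, 4.55e-05 to 0.0164 for Mfap2, 3.36e-07 to 0.0296 for Smagp, 3.36e-07 to 0.0159 for Npl and 3.07e-05 to 0.111 for Ccnd2, and these 5 calls were all lost without Tet-TKO library 2. Of these fits, Mfap2 and Ccnd2 kept theirs only without Tet-TKO library 3, and Ccnd2 lost its call in 10 of 19 alternatives in all, among them at least 6 markers (adjusted p = 0.0725), the tdTomato match (0.0123), no erythroid gene (0.0127) and the removal of cells with myeloid genes (0.0144). Smagp lost its call also when Tet-TKO library 1 was left out and when WT host library 2 was. In each of these 6 genes the 4 Tet-TKO libraries lay below both WT host libraries. Libraries 1 to 3 did so in all 39 genes called lower and lay above in all 18 called higher. For these 3 libraries the lack of overlap therefore adds nothing to a call. Of the 39 lower genes, 36 were protein coding. Without regard to the test, Tet-TKO libraries 1 to 3 all lay below both WT host libraries in 16.1% and all above in 9.89% of the genes tested.

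Since TET enzymes act at CG dinucleotides, the 250 bases before the annotated start are shown for 3 of the lower genes with an entry in the promoter table (RefSeq, build GRCm38.p6). Of the 2 starts that the table gives for Kcne3 the downstream one is shown. Capitals mark CG, searched as CG on both strands, where it reads the same. DNA methylation was not measured in these libraries. In the cell types it profiled for methylation, the paper found TET-dependent demethylation at distal regulatory elements. By its account promoters changed negligibly and stayed low in methylation in both genotypes.
Klf2, chr8:72318812-72319061, plus strand, 29 CG: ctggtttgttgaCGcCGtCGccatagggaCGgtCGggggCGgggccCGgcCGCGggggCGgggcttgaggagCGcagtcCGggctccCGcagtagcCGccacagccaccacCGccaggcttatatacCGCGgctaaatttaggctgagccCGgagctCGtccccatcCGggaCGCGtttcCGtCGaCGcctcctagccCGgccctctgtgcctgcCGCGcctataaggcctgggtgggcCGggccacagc
Tgfb1, chr7:25686752-25687001, plus strand, 21 CG: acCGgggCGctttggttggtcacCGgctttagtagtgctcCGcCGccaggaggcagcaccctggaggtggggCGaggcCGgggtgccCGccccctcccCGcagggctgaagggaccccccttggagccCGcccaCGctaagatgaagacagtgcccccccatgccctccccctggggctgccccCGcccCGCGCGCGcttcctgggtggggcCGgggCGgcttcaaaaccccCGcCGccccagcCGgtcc
Kcne3, chr7:100178433-100178682, plus strand, 10 CG: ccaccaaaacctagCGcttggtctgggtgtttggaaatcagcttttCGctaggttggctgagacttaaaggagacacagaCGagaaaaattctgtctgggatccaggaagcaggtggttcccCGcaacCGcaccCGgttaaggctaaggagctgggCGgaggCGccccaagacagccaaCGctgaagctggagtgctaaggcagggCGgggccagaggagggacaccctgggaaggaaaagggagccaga
Over the 32851 windows of the table, CG occurred 0 to 56 times with a median of 6, and 37.8% of the windows held 10 or more. The windows of Klf2 and Tgfb1 hold over 20. The window of the other Kcne3 start holds 3, under that median, as do those of Hba-x and Pf4 with 1 each and both of S100a16 with 1 and 3, so lower genes lay on either side of it. By the GENCODE M21 annotation of mm10, Klf2 spans chr8:72319033-72321656 and Kcne3 chr7:100176502-100184869, so the window of Klf2 reaches into the first exon that GENCODE gives, and that of Kcne3 lies inside the gene. Mfng (chr15:78755882-78773475, minus strand) has no entry in the table.

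Notch signalling and arterial identity were covered by a list of which 14 genes were tested. Of these 0 were called, with a median log2 fold change of -0.30. Gja4, a gap junction protein of arteries, had 35.2, 24.7, 39.1 and 0 CPM across the 4 Tet-TKO libraries, in order, and 62.6 and 59.2 CPM in WT host and a log2 fold change of -0.92 (SE 0.21, adjusted p = 0.0649). Notch1 gave -0.20 (SE 0.23, adjusted p = 0.917). All 4 Tet-TKO libraries lay below the WT host libraries for Gja4, but it did not pass the test. Venous genes gave 0 calls among 6 tested and a median of 0.09. Aplnr, the apelin receptor of veins and their precursors, had 117, 108, 166 and 106 CPM (Tet-TKO) and 80.1 and 71.5 CPM (WT host), and Nrp2, a VEGF and semaphorin co-receptor, had 77.6, 76.0, 192 and 65.1 CPM (Tet-TKO) and 47.7 and 43.7 CPM (WT host). Both were higher in every Tet-TKO library, with log2 fold changes of 0.74 (SE 0.19, adjusted p = 0.0980) and 1.19 (SE 0.32, adjusted p = 0.138) that did not pass.

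Yolk sac and scavenger endothelial genes had the lowest median of the endothelial lists, -1.01 over 5 genes tested, with 0 calls. Stab1, a scavenger receptor, had 21.4, 16.6, 23.5 and 0 CPM (Tet-TKO) and 47.3 and 53.3 CPM (WT host) and a log2 fold change of -1.31 (SE 0.21, adjusted p = 0.0103), just short of the threshold. Lyve1 had 79.5, 115, 366 and 73.2 CPM (Tet-TKO) and 293 and 382 CPM (WT host), a log2 fold change of -1.01 (SE 0.43, adjusted p = 0.498). Tet-TKO library 3 reached the WT host range for Lyve1 and the other 3 Tet-TKO libraries were lower. The summed level of the list was 182, 228, 645 and 171 CPM (Tet-TKO) and 491 and 606 CPM (WT host).

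The share of endothelial cells with a UMI of a zonal gene was compared after every cell had been thinned to 5000 UMIs, which left 104, 179, 16 and 3 Tet-TKO cells of libraries 1 to 4, and 190 and 159 WT host cells. Lyve1 was found in 11.5, 17.3, 31.2 and 33.3% (Tet-TKO) and 35.8 and 35.8% (WT host) of these cells. Stab2, a scavenger receptor that clears hyaluronan, was found in 0.962, 1.68, 18.8 and 0% (Tet-TKO) and 14.2 and 14.5% (WT host). Before thinning, the shares for Stab2 were 1.87, 3.17, 44.4 and 25.0% (Tet-TKO) and 16.6 and 19.3% (WT host). In libraries 1 and 2, which hold 107 and 189 of the 318 Tet-TKO endothelial cells, both genes were found in fewer cells than in either WT host library, whereas in library 3 Stab2 was found in more. Cells without the 8 markers held Stab2 in at most 0.263% of cells before and 0.0547% after thinning. In Tet-TKO library 3, Stab2 was found in 4 of 10 endothelial cells with and in 4 of 8 without a tdTomato UMI. Xist was found there in 0 of 10 and 1 of 8 of these cells. At most 2 cells of any Tet-TKO library held Xist, against 107 of 205 and 80 of 187 WT host endothelial cells. Many WT host cells also held no Xist UMI, so its absence does not show the origin of single cells.

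Among arterial genes, Gja4 was found in 9.62, 11.7, 12.5 and 0% (Tet-TKO) and 18.9 and 15.7% (WT host) and Dll4, a Notch ligand, in 2.88, 7.82, 18.8 and 0% (Tet-TKO) and 8.42 and 11.9% (WT host) of thinned endothelial cells. The groups did not overlap for Gja4 and overlapped for Dll4. Aplnr was found in 43.3, 43.6, 43.8 and 66.7% (Tet-TKO) and 32.1 and 34.0% (WT host), higher in every Tet-TKO library, while cells without the markers held it in 5.92, 5.66, 5.53 and 5.43% (Tet-TKO) and 4.11 and 3.62% (WT host). The endocardial genes Nfatc1 and Npr3 were found in 1.92, 8.94, 6.25 and 0% (Tet-TKO) and 5.26 and 9.43% (WT host) and in 7.69, 4.47, 6.25 and 0% (Tet-TKO) and 8.95 and 8.18% (WT host). Of 18 genes tested in this way, Npr3, Gja4, Aplnr, Lyve1, Runx1 and Cd34 did not overlap and reached the exact two-sided permutation p of 0.133 that is the smallest possible, 0.4 after Benjamini-Hochberg adjustment over the 18. How many of all genes do not overlap in this measure was not counted, so the number of such genes is not read as a result. Shares before thinning and the 3 cells of library 4 carry little weight here.

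**Figure D4:**
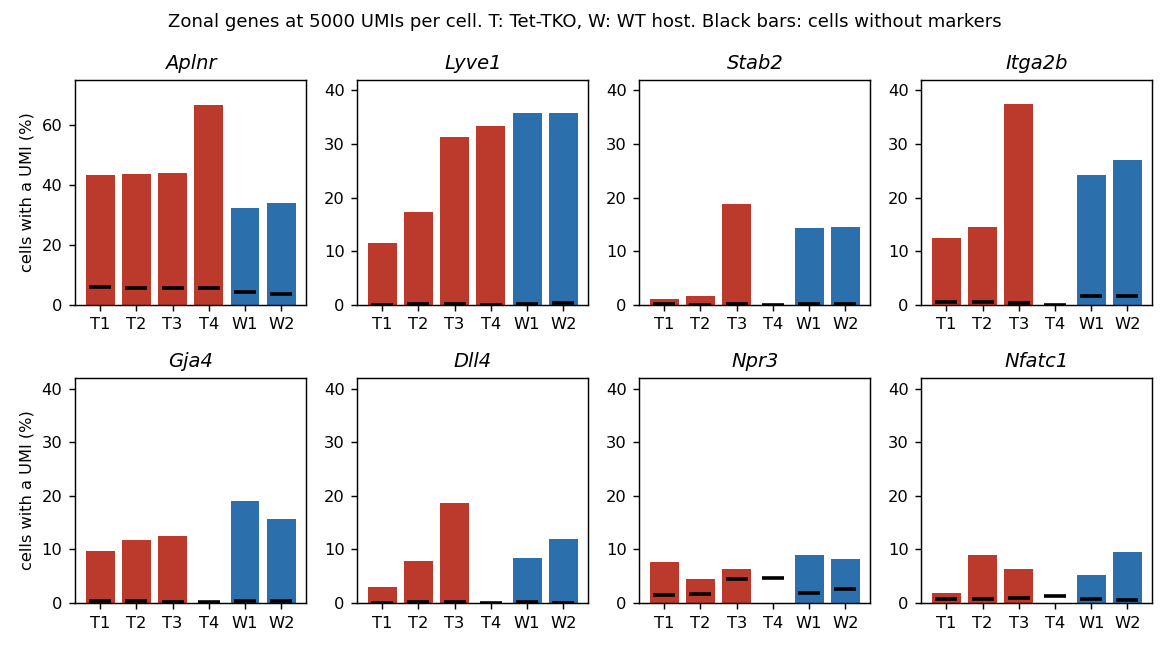
Share of endothelial cells with a UMI of 8 zonal genes after thinning to 5000 UMIs per cell, in percent, for Tet-TKO libraries 1 to 4 (red, T1 to T4) and WT host libraries (blue, W1 and W2). Black dashes give the same share in cells without the 8 markers; T4 rests on 3 cells, Lyve1 and Gja4 are lower and Aplnr is higher in all Tet-TKO libraries, and Stab2 is high in T3 only among the Tet-TKO libraries.

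Many endothelial cells held UMIs of genes of more than 1 zone. In WT host library 1, Lyve1 or Stab2 was found in 24.1% of cells with Gja4 or Dll4 and in 54.1% of the other endothelial cells. In WT host library 2 these shares were 33.3% and 38.8%, and in Tet-TKO libraries 1 and 2 they were 28.2% against 25.0% and 29.3% against 29.0%. Of these 4 libraries, WT host library 1 had the widest gap between the shares. Itga2b, an integrin of haemogenic endothelium and platelets, was found more often in cells with Lyve1 or Stab2 than in the others in each of them, at 55.8% against 37.8% and 55.1% against 34.7% in WT host and at 46.4% against 31.6% and 32.7% against 29.1% in Tet-TKO. These shares use all UMIs, so deeper cells hold more of every gene.

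Haemogenic genes had a median log2 fold change of -0.54 over 10 genes tested, with 0 called higher and 1, Spi1, called lower. Itga2b had 24.8, 32.9, 33.2 and 16.3 CPM (Tet-TKO) and 53.5 and 56.5 CPM (WT host) and -0.85 (SE 0.19, adjusted p = 0.0653). Runx1, the factor needed for blood cells to arise from endothelium, had 19.1, 19.2, 3.91 and 138 CPM (Tet-TKO) and 30.2 and 40.1 CPM (WT host) and -1.0 (SE 0.33, adjusted p = 0.266). The fitted Tet-TKO libraries were below WT host for both. Runx1 was found in 7.69, 3.91, 0 and 0% (Tet-TKO) and 11.1 and 10.7% (WT host) of thinned endothelial cells and in 3.11, 2.83, 1.64 and 1.39% (Tet-TKO) and 5.92 and 3.89% (WT host) of thinned cells without the markers. The latter are a mixture of many cell types, and whether their Runx1 UMIs are free RNA or expression was not tested. Endocardial genes gave 0 calls among 8 tested and a median of -0.36.

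Spi1, Coro1a, Fermt3 and Pf4, which are genes of blood cells, fell in Tet-TKO endothelial cells. Spi1, a factor of myeloid cells, had 1.43, 1.28, 0 and 0 CPM (Tet-TKO) and 23.3 and 57.9 CPM (WT host), and Coro1a, an actin regulator of leukocytes, had 2.86, 3.84, 0 and 0 CPM (Tet-TKO) and 20.4 and 46.5 CPM (WT host). Their log2 fold changes were -4.93 (SE 0.57, adjusted p = 0.00153) and -3.38 (SE 0.50, adjusted p = 0.00648). Fermt3, an integrin activator of blood cells, gave -3.02 (SE 0.30, adjusted p = 5.33e-04), and Pf4, a platelet chemokine, gave -3.89 (SE 0.52, adjusted p = 0.00362). Over leave-one-out fits the adjusted p ranged over 2.67e-05 to 0.0427 for Spi1, 1.46e-04 to 0.0823 for Coro1a, 1.70e-06 to 0.0156 for Fermt3 and 8.19e-05 to 0.0393 for Pf4, and all 4 calls were lost without Tet-TKO library 2. Those of Spi1, Coro1a and Pf4 were also lost without Tet-TKO library 1, and those of Coro1a and Pf4 without WT host library 2. With cells thinned to 5000 UMIs and selected anew by the rule, Fermt3 had a log2 fold change of -2.03 (adjusted p = 0.113) and was not called. Spi1, Coro1a and Pf4 did not pass the filter on low counts in that fit. Of 10 myeloid marker genes 8 were detected, 3 were tested and 0 were called, and their summed level of 8.57, 9.81, 15.6 and 65.1 CPM (Tet-TKO) and 40.8 and 139 CPM (WT host) lay below WT host in the 3 fitted Tet-TKO libraries and within its range in library 4. The median log2 fold change of the 3 tested genes was -3.08. Endothelial cells with UMIs of 2 or more of these genes numbered 6 in Tet-TKO and 30 in WT host. Without these 36 cells, Spi1 had a log2 fold change of -3.86 (adjusted p = 0.00297), Fermt3 of -2.37 (adjusted p = 0.00579), Pf4 of -3.38 (adjusted p = 0.0108) and Coro1a of -1.70 (adjusted p = 0.276), so Pf4 and Coro1a were no longer called. Klf2, Kcne3 and Mfng gave -1.52 (adjusted p = 0.00468), -3.34 (adjusted p = 3.48e-04) and -3.63 (adjusted p = 6.08e-04) in that fit, while Tgfb1 gave -1.14 (adjusted p = 0.0121) and just missed the threshold.

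The haemoglobin genes Hba-x, Hba-a1 and Hba-a2 fell in Tet-TKO endothelial cells. Hba-x, the embryonic alpha-like globin, had 22.4, 33.7, 13.7 and 0 CPM (Tet-TKO) and 564 and 1346 CPM (WT host) and -5.15 (SE 0.38, adjusted p = 7.96e-05), with a log2 fold change of -4.39 in cells without the 8 markers. Hba-a1 and Hba-a2 gave -4.60 (SE 0.57, adjusted p = 0.00244) and -4.92 (SE 0.72, adjusted p = 0.00616). The 12 erythroid marker genes, all detected, had a summed level of 228, 113, 35.2 and 212 CPM (Tet-TKO) and 1160.0 and 3023 CPM (WT host). Of these 12 genes 8 were tested, with 0 called higher and 3 lower, against 0.188% and 0.406% of all genes tested. The calls of Hba-a1 and Hba-a2 were lost without Tet-TKO library 1 or 2. That of Hba-a2 was also lost without WT host library 2 and with no erythroid gene allowed (adjusted p = 0.0127, edgeR). WT host library 2 had the highest level of Hba-x and of the erythroid sum. In cells without the 8 markers that sum was 379, 1089, 115 and 228 CPM (Tet-TKO) and 6450 and 11030 CPM (WT host). Kept cells with 2 or more of the rule's erythroid genes numbered 23, 57, 47 and 15 (Tet-TKO) and 828 and 1762 (WT host). Cardiomyocyte markers (9 of 9 detected) summed to 37.6, 32.4, 27.4 and 8.14 CPM (Tet-TKO) and 283 and 56.5 CPM (WT host) and gut and yolk sac endoderm markers (12 of 12 detected) to 26.2, 23.9, 27.4 and 8.14 CPM (Tet-TKO) and 133 and 55.6 CPM (WT host), highest in WT host library 1, with 0 of 6 and 0 of 4 tested genes called. Megakaryocyte markers (9 of 10 detected) summed to 30.01, 44.8, 58.7 and 122 CPM (Tet-TKO) and 83.7 and 112 CPM (WT host), so that the 3 fitted Tet-TKO libraries lay below WT host and library 4 above, with 1 of 4 tested genes, Pf4, called lower. Mesenchyme and allantois markers (12 of 12 detected) summed to 259, 244, 158 and 89.5 CPM (Tet-TKO) and 228 and 135 CPM (WT host) and neural markers (9 of 10 detected) to 3.81, 15.8, 3.91 and 16.3 CPM (Tet-TKO) and 17.8 and 55.1 CPM (WT host), without a call. The part of RNA from other cells in these differences was not tested.

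Junction genes gave 0 calls among 15 tested with a median log2 fold change of -0.06, and basement membrane genes 0 among 12 with a median of 0.08. Col4a1, a chain of collagen IV, had 261, 297, 575 and 244 CPM (Tet-TKO) and 270.1 and 277 CPM (WT host), where library 3 stood out and libraries 1 and 2 were at the WT host level. Among BMP and TGF-beta receptors and targets 0 of 13 were called higher and 1, Tgfb1, was called lower, with a median of -0.08. Id3, a target of BMP signalling, had 587, 619, 690.3 and 171 CPM (Tet-TKO) and 433 and 380.4 CPM (WT host) and 0.64 (SE 0.15, adjusted p = 0.0813). The 3 fitted Tet-TKO libraries were above WT host for Id3 and library 4 was far below. S phase and G2/M genes gave 0 calls among 20 and 20 tested, with medians of -0.20 and 0.04. Genes of glycolysis gave 0 calls among 17 and a median of -0.28, of which Pkm, pyruvate kinase, had 1164, 1112, 1029 and 952 CPM (Tet-TKO) and 1859 and 1807 CPM (WT host) and -0.71 (SE 0.15, adjusted p = 0.0512). Of the 17, 16 had a negative log2 fold change, and in the fitted Tet-TKO libraries 13 lay below and 1 above both WT host libraries. For S phase genes these counts were 18, 8 and 0 of 20, and for G2/M genes 8, 7 and 2 of 20. Over all genes tested the shares were 49.1%, 16.1% and 9.89%. Posterior Hox genes gave 0 calls among 10 and a median of 0.54. Genes of DNA methylation gave 0 calls among 10, and Dnmt1, Dnmt3b and Uhrf1 had log2 fold changes of 0.11, -0.35 and -0.24.

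Zdbf2, Plagl1 and Snrpn, which are imprinted, rose in Tet-TKO endothelial cells. Of 29 imprinted genes tested 3 were called higher and 1, Asb4, lower, with a median log2 fold change of 0.26. Over all 9599 genes tested 0.188% were called higher and 0.406% lower, with a median of 0.01. Zdbf2, an imprinted zinc finger gene, had 91.9, 76.0, 74.3 and 73.2 CPM (Tet-TKO) and 20.4 and 24.6 CPM (WT host) and 1.90 (SE 0.21, adjusted p = 0.00114). Plagl1, an imprinted transcription factor, had 99.1, 134, 166 and 81.4 CPM (Tet-TKO) and 39.0 and 44.7 CPM (WT host) and 1.65 (SE 0.21, adjusted p = 0.00256). Snrpn, an imprinted splicing protein gene, had 95.7, 99.0, 68.4 and 65.1 CPM (Tet-TKO) and 36.4 and 32.3 CPM (WT host) and 1.43 (SE 0.22, adjusted p = 0.00909). Each was higher in all 4 Tet-TKO libraries. The adjusted p in leave-one-out fits ranged over 1.70e-06 to 0.0379, 6.81e-06 to 0.0620 and 2.95e-06 to 0.192, and without Tet-TKO library 2 none of the 3 was called. Zdbf2 and Plagl1 were also not called without either WT host library, and Snrpn kept its call only without Tet-TKO library 3. After thinning to 5000 UMIs and selection anew by the rule, Snrpn had a log2 fold change of 1.28 (adjusted p = 0.0202) and was not called.

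Dppa4, a chromatin protein of pluripotent and germ cells, was the gene of 3 germline and pluripotency genes tested that was called. Its level was 45.7, 52.1, 50.8 and 40.7 CPM across the 4 Tet-TKO libraries, in order, and 5.10 and 6.83 CPM in WT host. The log2 fold change was 3.08 (SE 0.25, adjusted p = 1.70e-04), and the call held in all leave-one-out fits (3.36e-07 to 0.00970). Wdfy1, an endosomal adaptor, had 33.8, 46.5, 62.6 and 16.3 CPM (Tet-TKO) and 7.28 and 5.01 CPM (WT host) and 2.85 (SE 0.31, adjusted p = 9.76e-04), and Adat2, a tRNA deaminase, gave 1.54 (SE 0.24, adjusted p = 0.00898). Over leave-one-out fits the adjusted p ranged over 5.75e-06 to 0.0257 for Wdfy1, which lost its call when library 2 of either genotype was left out, and over 1.29e-04 to 0.145 for Adat2, which of these fits kept its call only without Tet-TKO library 3. Adat2 lost its call in 11 of 19 alternatives, with an adjusted p of 0.0134 in DESeq2. After thinning to 5000 UMIs and selection anew its log2 fold change was 0.91 (adjusted p = 0.526, edgeR). All Tet-TKO libraries lay above both WT host libraries for Dppa4, Wdfy1 and Adat2.

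Of the 18 higher genes 8 were protein coding and 7 were pseudogenes. Rps3a1, a ribosomal protein gene, had 285, 291, 403 and 635 CPM (Tet-TKO) and 4379 and 4435 CPM (WT host), and its near-identical copy Rps3a3 had 4395, 4209, 4113 and 3947 CPM (Tet-TKO) and 457 and 184 CPM (WT host). The levels of the pair were thus exchanged between the groups, with log2 fold changes of -3.76 and 3.73, and since reads can be assigned to either copy and strain goes with genotype, both are uncertain. The same uncertainty holds for Rps13-ps1, Rps15a-ps8, Eif3j2 and Hmga1b, with log2 fold changes of 3.84, 3.46, 2.44 and 2.13. Whether their levels were exchanged with another copy was not tested. The tdTomato transcript had 144, 155, 88.0 and 171 CPM (Tet-TKO) and 2.18 and 3.19 CPM (WT host) and a log2 fold change of 5.67, and Xist, the RNA that coats the inactive X chromosome, had 0.953, 3.84, 3.91 and 8.14 CPM (Tet-TKO) and 288 and 245 CPM (WT host) and -6.59.

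**Figure D5:**
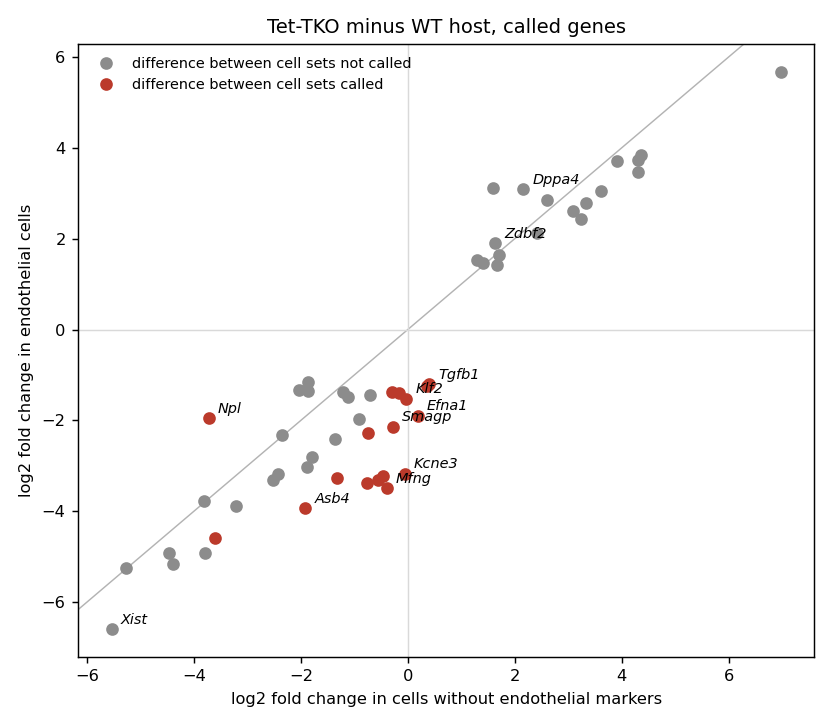
Log2 fold change (Tet-TKO minus WT host) of the genes called in endothelial cells that were also tested in cells without the 8 markers, 1 of them not shown, with the latter on the horizontal and the former on the vertical axis. Red points are genes whose change differed between the cell sets by the interaction test, and the diagonal marks equal change; all points with a positive change in endothelial cells are grey, while Kcne3, Mfng, Klf2, Efna1, Smagp and Tgfb1 lie close to 0 on the horizontal axis.

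Whether a change was particular to endothelial cells was tested as the interaction of genotype with cell set, against cells of the same libraries without any of the 8 markers and with at most 1 erythroid gene. Those 29189 cells, of which the 797 of Tet-TKO library 4 were not fitted, are a mixture of many types. Their makeup differed between the groups. Gut and yolk sac endoderm markers summed to 150.0 to 414 CPM (Tet-TKO) and 5266 and 1744 CPM (WT host) in them. The paper found no tdTomato+ cells in the trophoblast. Of 18624 genes tested, 99 (0.532%) had a higher and 74 (0.397%) a lower Tet-TKO effect in endothelial cells. Without WT host library 1 the 173 genes became 81. Of the 39 lower genes, 17 also had a lower effect by this test and 1, Npl, had a higher one. Of the 18 higher genes 0 differed by it. In cells without the markers alone, 28 genes (0.143%) of 19639 were higher and 33 (0.168%) lower.

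For Kcne3 the effect differed by -3.23 (SE 0.62) on the log2 scale, for Mfng by -3.17 (SE 0.45), for Efna1 by -2.24 (SE 0.26), for Tgfb1 by -1.74 (SE 0.17) and for Smagp by -1.99 (SE 0.26). In cells without the markers their log2 fold changes were -0.06, -0.39, 0.18, 0.40 and -0.28. The levels there were 0.176, 0.161, 0.197 and 0.142 CPM (Tet-TKO) and 0.187 and 0.194 CPM (WT host) for Kcne3, 1.25, 1.78, 1.82 and 2.41 CPM (Tet-TKO) and 1.68 and 2.67 CPM (WT host) for Mfng and 26.0, 24.9, 12.5 and 10.8 CPM (Tet-TKO) and 18.5 and 14.9 CPM (WT host) for Tgfb1. Kcne3 was near 0 in those cells, so its effect there rests on few UMIs, whereas Tgfb1 was well detected. Npl fell by 3.72 on the log2 scale in cells without the markers and less in endothelial cells, an interaction of 1.73 (SE 0.21). Dppa4, Zdbf2 and Plagl1 had log2 fold changes of 2.16, 1.63 and 1.70 in cells without the markers, and their interactions of 0.82 (SE 0.42), 0.32 (SE 0.20) and -0.10 (SE 0.18) were not called. These genes were picked for their change in the same libraries.

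In the other direction, the 3 largest interactions belonged to Trap1a, Tfec and Ctsh. Ctsh, a lysosomal protease, stood at 26.7, 31.1, 29.3 and 24.4 CPM (Tet-TKO) and 29.9 and 38.3 CPM (WT host) in endothelial cells, with overlapping groups, and at 5.20, 3.06, 3.84 and 0.791 CPM (Tet-TKO) and 169.6 and 48.9 CPM (WT host) in cells without the markers. Its effect differed by 4.33 (SE 0.23). Tfec, a factor of the MiT family, gave 5.09 (SE 0.50) and Trap1a, an X-linked gene, gave 5.13 (SE 0.43). In cells without the markers the log2 fold changes of Trap1a, Tfec and Ctsh were -3.41, -4.56 and -4.72 (adjusted p = 0.0743, 0.0307 and 0.0155, edgeR) and did not pass the test. Markers of gut and yolk sac endoderm were also lower in Tet-TKO there, with a summed level of 414, 174, 289 and 150.0 CPM (Tet-TKO) and 5266 and 1744 CPM (WT host), and their part in these interactions was not tested. Within endothelial cells the log2 fold changes of 1.73, 0.86 and -0.18 did not pass the test.

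Cells that held 4 or more markers together with Etv2 UMIs gave a further set from the same 6 libraries, all of which had 20 or more such cells. In that set 33 genes (0.324%) of 10177 were higher and 57 (0.56%) lower in Tet-TKO. Kcne3, Mfng and Klf2 had log2 fold changes of -3.10, -3.26 and -0.94 there (adjusted p = 5.69e-04, 0.00371 and 0.00634, edgeR), of which Klf2 missed the fold minimum. Gpr182, Efna1 and Tgfb1 had -1.56, -1.54 and -0.96 (adjusted p = 0.0335, 0.0384 and 0.0122) and were not called. Dppa4, Zdbf2 and Plagl1 had 3.25, 1.99 and 1.01 (adjusted p = 6.29e-04, 6.17e-04 and 0.00765) and were called. Of the other named lower genes, Asb4, Mfap2 and Smagp had -3.43, -2.86 and -1.97 (adjusted p = 2.61e-04, 7.16e-04 and 1.91e-04) and were called, and S100a16, Npl, Tfpi and Ccnd2 had -2.88, -1.91, -0.96 and -0.96 (adjusted p = 0.0266, 0.0709, 0.0862 and 0.00484) and were not. The cells differ from the 710 endothelial cells, but the libraries, the sort and the strain are shared.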

How the data were processed

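Sorted cells of chimaeras had been profiled with 10x 3′ v3 chemistry, in 4 libraries of tdTomato+ and 2 of tdTomato- cells at E8.5. The values deposited by the authors are raw UMI counts for each barcode, not normalised, made with Cell Ranger on mm10 with the tdTomato sequence added. Reads of near-identical copies can be assigned to either. Cells had at least 1500 UMIs and at most 30% mitochondrial and 35% ribosomal UMIs, as in the methods. Members, gene lists and tests were chosen with earlier results of these data known.

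Counts of member cells were summed per library (511341 to 2746679 UMIs in the 5 fitted libraries), filtered with filterByExpr, scaled by TMM and tested with the quasi-likelihood test of edgeR 4.0.16 in R 4.3.3, and genes were called at 0.01 (adjusted after Benjamini and Hochberg) with a log2 change of 1 or more either way. The interaction fit had the library as a block. Shares were compared by exact permutation (scipy 1.17.1). Doublets were scored with Scrublet in scanpy 1.11.5 and marked 78 member cells, removed only as an alternative. The fits were also run on simulated data, and no result here rests on that outcome. Named genes were the rule genes, called and most abundant list members, the 10 largest called changes in each direction with at least 20 CPM and every Tet-TKO library outside the WT host range, the 3 largest interactions in each direction, checks and the 15 leading genes of the members. Of these, the ones the results turn on are given, and 1 gene is not reported here. Alternatives were DESeq2 1.42.0, its size factors, no filter, no fold minimum, a replicate block, libraries left out or summed, and other member rules. The paper set each Tet-TKO sample against a matching WT host, but the labels do not say that equal replicate numbers mark 1 pool. The correlation of deviations (0.10 for libraries 1 and -0.06 for libraries 2) cannot decide on pairing. With 2 WT host libraries the deviations of 1 mirror those of the other. The block is therefore an alternative, and pairing remains possible.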

Additional observations from a re-analysis of the deposited data

Results flagged for a closer look

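Among the 4 Tet-TKO libraries, 1 library lay far from the others in the share of thinned endothelial cells with a UMI of 6 genes. These were Aplnr at 66.7% in library 4, Stab2 at 18.8% in library 3, Hoxa11 at 2.23% in library 2, Tbx4 at 1.92% in library 1, Kdr at 33.3% in library 4 and Flt1 at 81.3% in library 3. Chance marks about 5% of such groups, and 20 were tried. For Hoxa11 (4 of 179 cells) and Tbx4 (2 of 104 cells) the other 3 libraries were all at 0, so that any value above 0 is marked. Libraries 3 and 4 rest on 16 and 3 thinned cells.

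The Tet-TKO effect differed between endothelial cells and cells without markers by the interaction test (log2 difference) for Asb4 (-2.18), Ccnd2 (-1.50), Coro1a (-2.67), Efna1 (-2.24), Hba-a1 (-1.27), Irx5 (-2.83), Kcne3 (-3.23), Klf2 (-1.67), Mfap2 (-2.01), Mfng (-3.17), Mxra7 (-1.28), S100a6 (-1.62), Smagp (-1.99), Tgfb1 (-1.74), Tm6sf1 (-1.16) and Tspan15 (-2.79). The difference was positive for Npl (1.73), Ctsh (4.33), Tfec (5.09) and Trap1a (5.13). Among genes not called in endothelial cells it was also positive for Hbb-y (1.56), Igf1 (1.44), Lmo2 (1.34), Rbp4 (2.95), Rhox5 (3.04) and Tek (1.12) and negative for Foxf1 (-1.23), Myl4 (-1.93) and Myl7 (-3.01). Adjusted p was at most 0.00918 in edgeR.

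At E7.5, which no comparison uses, 7 cells of the WT host library and 0 of 5510 kept cells of the Tet-TKO library passed the rule. The exact 95% binomial upper bound of the latter is 0.0669%, and with 1 library of each genotype no test was made.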

How the results depend on the processing

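Against 18 genes called higher and 39 lower, no filter on low counts gave 67 and 168, a replicate block 83 and 199 (keeping all 18 and 39), 18 cells per library 3 and 10, and Etv2 UMIs allowed, added after seeing the data, 38 and 70. In the block fit Tet-TKO library 3 was the only library with its replicate number. The genotype effect there came from libraries 1 and 2 of both groups. Libraries 1 and 2 and libraries 3 and 4 summed gave 16 lower. Why the counts changed was otherwise not tested. Leaving out 1 library gave 3 to 50 higher and 4 to 138 lower, least without Tet-TKO library 2 and most without library 3 (of 18 cells), where all 18 and 39 remained; without Tet-TKO library 1, WT host library 1 and WT host library 2 it gave 15, 8 and 6 higher and 12, 24 and 15 lower. DESeq2 gave 24 and 44, of which 17 and 34 were the same genes. None of the 57 genes changed direction in any alternative run, and Dppa4, Hba-x, Rps3a1, S100a16, Xist and tdTomato kept their call in every one that tested them. In all 18 higher and 39 lower genes the fitted Tet-TKO libraries lay outside the WT host range. Fits on the same libraries could therefore hardly change a direction. Thinned to 5000 UMIs, 12 of the 18 and 23 of the 39 genes were called. That fit applied the rule anew to the thinned cells, so the cells changed along with the depth. It held 68, 116 and 21 cells of Tet-TKO libraries 1 to 3 and 182 and 129 WT host cells. The 173 interactions became 81 to 199 with 1 library left out, least without WT host library 1. The difference in share stayed negative in all alternatives run, at -0.848 percentage points or further from 0, except the replicate block, where it was -0.526 over the pairs of libraries 1 and 2. Few cells in Tet-TKO libraries 3 and 4 limit all values.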
